A study of Mus musculus with 3 samples.

Results

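The serotonin receptor genes Htr1a, Htr1b, Htr1d, Htr2a, Htr2b, Htr2c, Htr3a, Htr3b, Htr4 and Htr7 were followed through enteric neurons of mice that lack the endothelin receptor Ednrb. These 10 genes were taken by symbol from the 33353 genes of the table, and 9 of them had at least 1 read molecule. The neurons came from 3 Ednrb-/- mice at postnatal day 14, with 1 library per mouse and no wild-type mouse in the table. All 3 mice carried Wnt1-Cre and a tdTomato reporter, which labels cells of the neural crest lineage. Labelled cells were sorted from the longitudinal muscle and myenteric plexus of the small intestine, and the 2060 cells analysed are those that the authors called neurons. Mice 1, 2 and 3 gave 354, 1050 and 656 neurons.

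Serotonin in the gut comes mostly from enterochromaffin cells of the epithelium and, in smaller part, from serotonergic myenteric neurons. The receptors fall into groups by how they signal. HTR3A and HTR3B form a cation channel that opens when serotonin binds, and HTR3A can build a channel alone while HTR3B needs HTR3A. The HTR2 receptors act through Gq and phospholipase C, HTR4 and HTR7 raise cyclic AMP through Gs, and the HTR1 receptors lower it through Gi and Go. In the enteric nervous system HTR3 channels carry fast excitation, including in intrinsic sensory neurons, and HTR4 on nerve endings raises transmitter release.

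Values are counts of unique molecular identifiers (UMIs), each standing for 1 captured mRNA molecule. A level is the number of UMIs of a gene per 10000 UMIs of the cells in question, and a share is the percentage of cells with at least 1 UMI of the gene. Mouse 1 was shallower, with a median of 3734.5 UMIs per cell against 9599.5 in mouse 2 and 9578.5 in mouse 3. Shares rise with depth, so they were also taken after drawing 3000 UMIs from each cell, which left out 78, 55 and 45 shallower cells of mice 1, 2 and 3 and is called thinned below. Levels of different genes are counts of molecules that were not corrected for how well each mRNA is captured. All 10 neuronal genes listed as a check, among them Tubb3, Snap25 and Elavl4, were present in each mouse, with a summed level of 73.8, 67.9 and 65.4. Smooth muscle genes were also present, at a summed level of 77.6 in mouse 1, 17.4 in mouse 2 and 11.8 in mouse 3, and 121 cells (75, 29 and 17) held them at 100 or more UMIs per 10000. The 10 glial genes checked summed to 22.4, 30.4 and 23.4. Ednrb mRNA itself was found at 1.82, 2.54 and 1.98 UMIs per 10000 in the libraries labelled Ednrb-/-. Which stretch of the transcript these UMIs come from is not known from the table, so they do not check the deletion. The libraries shared 2 cell barcodes, found in 4 cells. Of the gene symbols 171 had 20 or more UMIs in mouse 1 and 0 in mice 2 and 3, and 2014 had UMIs in both mice 2 and 3 and 0 in mouse 1. Whether gene naming, cell content or depth moved with these symbols was not tested, so a value near 0 in mouse 1 alone is uncertain.

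Neurons were classed by genes other than the receptors. Nos1-only cells (nitric oxide synthase, 962 cells in all), Chat-only cells (choline acetyltransferase, 277), Etv1-only cells (1075) and Bnc2-only cells (332) held 1 gene of the pair Nos1 and Chat or Etv1 and Bnc2 and not the other. Nmu-positive cells (200) held neuromedin U, a peptide of intrinsic sensory neurons, and 70 of them held 2 or more Nmu UMIs.

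Htr3a and Htr3b lie next to each other on chromosome 9 in the mouse genome build GRCm38, Htr3a at chr9:48899213-48911099 and Htr3b at chr9:48935008-48964990, both on the minus strand with 23908 bases between them. Htr1b is on the same chromosome at chr9:81628291-81633828, on the minus strand. Htr2a lies at chr14:74640840-74709494 on the plus strand and Htr2b at chr1:86099026-86111970 on the minus strand. Upstream sequence is shown for Htr3b, Htr1b and Htr2a, which were found at higher levels in Nmu cells in each mouse, and for Htr2b, which was not. Each run holds the 200 bases from 250 to 51 bases before the RefSeq start (GRCm38.p6), 5′ to 3′ on the strand of the gene. The windows are chr9:48965041-48965240 for Htr3b, chr9:81633883-81634082 for Htr1b, chr14:74640624-74640823 for Htr2a and chr1:86112031-86112230 for Htr2b. Capitals mark a match to 1 of 5 motifs searched on both strands, namely the core promoter element TATAAA, the homeodomain core TAATTA, the E-box CAGCTG, the cyclic AMP response element core TGACGT and the GC box GGGCGG.
Htr3b: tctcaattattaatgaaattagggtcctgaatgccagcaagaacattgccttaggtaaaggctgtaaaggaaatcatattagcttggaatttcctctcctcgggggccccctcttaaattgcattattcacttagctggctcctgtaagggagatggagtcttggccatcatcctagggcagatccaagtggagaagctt
Htr1b: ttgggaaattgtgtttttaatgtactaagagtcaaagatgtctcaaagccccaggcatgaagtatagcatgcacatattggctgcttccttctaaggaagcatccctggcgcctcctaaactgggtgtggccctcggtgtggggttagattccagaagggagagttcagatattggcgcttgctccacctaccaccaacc
Htr2a: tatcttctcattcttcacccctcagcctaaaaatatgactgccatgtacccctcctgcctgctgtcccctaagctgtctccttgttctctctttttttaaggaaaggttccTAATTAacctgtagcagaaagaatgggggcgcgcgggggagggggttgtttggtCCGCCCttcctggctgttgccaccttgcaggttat
Htr2b: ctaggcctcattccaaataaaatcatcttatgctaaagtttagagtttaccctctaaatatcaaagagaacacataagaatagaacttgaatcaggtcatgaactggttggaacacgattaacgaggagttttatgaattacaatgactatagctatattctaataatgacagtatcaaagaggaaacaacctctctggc
The Htr2a window holds the homeodomain core and, on the other strand, the GC box, while the other windows hold none of the 5. All windows stop 51 bases before the start, so they cannot show whether a TATAAA element lies nearer to it. Of 32851 promoter windows of this length 4.19% held the homeodomain core and 24.6% the GC box, and 9.14% held the TATAAA element, 10.3% the E-box and 4.16% the cyclic AMP element. The GC content was 44.5% for Htr3b, 49.0% for Htr1b, 51.0% for Htr2a and 34.0% for Htr2b. RefSeq promoters were matched for 8 of the 10 genes, and none was used for Htr3a and Htr4.

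Across all neurons Htr3a was by far the most abundant of the receptors and Htr1a was not found. Htr3a stood at 1.35 UMIs per 10000 in mouse 1, 0.967 in mouse 2 and 0.982 in mouse 3, and gave 64.4%, 69.1% and 60.6% of the 320, 1451 and 1040 receptor UMIs of those mice. Htr2b followed at 0.242, 0.176 and 0.345, and Htr3b at 0.275, 0.113 and 0.139. The order of these 2 genes differed between mouse 1 and the other mice. Htr2c stood at 0.111, 0.0328 and 0.0359, and Htr7 at 0.00655, 0.0618 and 0.0499, which is 1 UMI in mouse 1. Htr1b (0.0262, 0.0174 and 0.0359), Htr2a (0.0524, 0.00965 and 0.0109) and Htr4 (0.0262, 0.0222 and 0.0218) overlapped each other across mice and could not be put in order. Htr1d had 1 UMI in each mouse. Htr1a had 0 UMIs in 2060 cells, which allows a share of cells with a UMI of up to 0.146% at a floor of 3 cells. Intervals and floors cover counting error only.

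**Figure D1:**
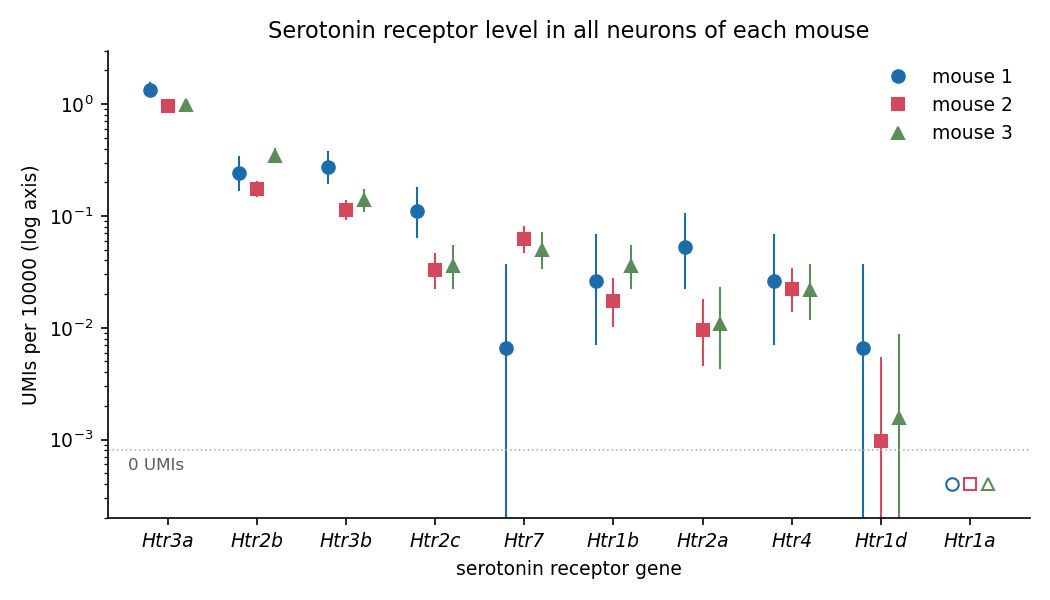
Level of each receptor gene in all neurons, in UMIs per 10000 on a log axis, with 1 point per mouse and its 95% exact Poisson interval, clipped at the foot of the axis. Htr3a lies near 1 in all 3 mice, above every other receptor, and Htr1a is shown by open symbols because no UMI was found.

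At least 1 of the 10 receptors was found in 38.1% of neurons in mouse 1, 53.1% in mouse 2 and 52.0% in mouse 3, and 2 or more in 10.2%, 15.7% and 18.6%. Mouse 1 was lowest in both. After thinning the share with any receptor was 35.5%, 28.9% and 30.6%, so mouse 1 was then the highest. Because the table holds only cells that the authors called neurons, no cells known to lack these genes were at hand to measure free RNA. The 121 cells rich in smooth muscle genes, which still held neuronal genes at 33.5, 54.5 and 62.0 UMIs per 10000, had Htr3a in a thinned share of 22.5% ± 8.64 (SD, n = 3 mice) against 22.3% ± 1.39 in all neurons. The part of free RNA in the shares below was not tested.

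The channel subunit Htr3a was found in every class, and its levels in the Nos1 and Chat classes overlapped. In Nos1-only cells the level of Htr3a was 1.25, 1.18 and 1.19 UMIs per 10000 in mice 1, 2 and 3. In Chat-only cells it was 1.66, 0.725 and 0.927, and the value of mouse 1 rests on 11 UMIs in 16 cells. Mouse 1 was higher in Chat-only cells and mice 2 and 3 in Nos1-only cells. The thinned share of cells was 28.0% ± 0.743 (SD, n = 3 mice) for Nos1-only and 14.9% ± 2.48 for Chat-only cells. Of the 802 Htr3a-positive neurons 481 (60.0%) were Nos1-only, a class that made up 46.7% of all neurons. A log2 difference of 0.19 between Nos1-only and Chat-only cells had a 95% interval from -0.36 to 0.75 and did not pass (limma adjusted p = 0.71).

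In that comparison 0.0529% of the 11340 genes tested were called higher and 0.0353% lower at an adjusted p under 0.05, and 0 of the 4 receptors tested (Htr2b, Htr2c, Htr3a and Htr3b) was called in either direction. The other 6 receptors fell under the filter of a mean level of 0.05 UMIs per 10000. At an unadjusted p under 0.05, 668 genes were higher and 695 lower (5.89% and 6.13%), and 0 of these were receptors.

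Bnc2-only cells held less Htr3a than Etv1-only cells in each mouse. The level was 1.01, 1.03 and 0.928 in Etv1-only cells and 0.351, 0.743 and 0.433 in Bnc2-only cells of mice 1, 2 and 3, so that the classes did not overlap. The log2 difference was 0.89 (SE 0.21), with an unadjusted p of 0.0065, and did not pass after adjustment (limma adjusted p = 0.21). Smooth muscle genes moved with this comparison in mouse 1, at 22.2 in Etv1-only and 167 in Bnc2-only cells, and stood at 17.2 and 18.4 in mouse 2 and 14.2 and 7.07 in mouse 3. Without the 121 cells rich in them the log2 difference of Htr3a was 0.64 (adjusted p = 0.19). Their part in the result was not tested.

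The highest level of Htr3a was in the Nmu cells. It was 5.71, 1.42 and 2.20 UMIs per 10000 in Nmu-positive cells against 0.823, 0.928 and 0.783 in cells without Nmu, higher in 3 of 3 mice, with a log2 difference of 1.53 (SE 0.36). Htr3b went the same way, at 1.22, 0.255 and 0.453 against 0.162, 0.101 and 0.0872, with a log2 difference of 1.57 (SE 0.30). Neither passed over 11341 genes (limma adjusted p = 0.57 and 0.31), although the unadjusted p was 0.0043 and 0.0014. In this comparison 0.0176% of genes were called higher and 0.0% lower. At an unadjusted p under 0.05, 386 genes (3.4%) were higher and 374 (3.3%) lower, and Htr3a and Htr3b were among the former.

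A single Nmu UMI made a cell positive in that test, and such cells were unequally spread, being 6 of 31 Nmu-positive cells in mouse 1, 65 of 80 in mouse 2 and 59 of 89 in mouse 3. Cells with exactly 1 Nmu UMI held Htr3a in 66.7%, 47.7% and 49.2% of cells of mice 1, 2 and 3, against 21.1%, 41.3% and 36.9% of cells without Nmu. When 2 UMIs were asked for, against cells with none, the level of Htr3a was 6.06, 3.1 and 4.28 UMIs per 10000 and that of Htr3b 1.23, 0.547 and 1.09, in each mouse above the Nos1, Chat, Etv1 and Bnc2 classes. The log2 differences were then 2.23 (SE 0.25) for Htr3a and 2.24 (SE 0.31) for Htr3b, and both passed (limma adjusted p = 0.00012 and 0.0008). With this cut 2.44% of genes were called higher and 2.09% lower. Over all settings tried the adjusted p ran from 0.00012 to 0.86 for Htr3a and from 0.0008 to 0.86 for Htr3b. The calls also came without mouse 2 (adjusted p = 0.0054 and 0.016, with 0.529% of genes called higher and 0.0265% lower), and without mouse 1 or mouse 3 neither was called. Neuronal genes as a whole also stood higher in the cells with 2 or more Nmu UMIs, at a summed level of 139, 101 and 98.1 against 67.0, 67.4 and 63.4 in cells without Nmu, and all 10 were present in both. Smooth muscle genes stood at 26.2, 5.78 and 26.9 against 83.1, 16.9 and 10.8, and glial genes at 7.14, 27.9 and 17.1 against 24.0, 30.5 and 24.0. Of genes known from interstitial cells of Cajal, Kit, a receptor tyrosine kinase, was higher in each mouse (1.61, 0.791 and 0.698 against 0.0734, 0.0210 and 0.0781), while Ano1 stood at 0.0767, 0.122 and 0 against 0.0220, 0.0147 and 0.00726, and Cd34 was at 0 in the cells with Nmu. The 4 endothelial genes stood at 0.0767, 0.182 and 0.121 against 0.0661, 0.0441 and 0.0472. Without the cells rich in smooth muscle genes the 1-UMI differences were 1.56 for Htr3a and 1.63 for Htr3b (limma adjusted p = 0.66 and 0.51). The part of these genes in the result was not tested.

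**Figure D2:**
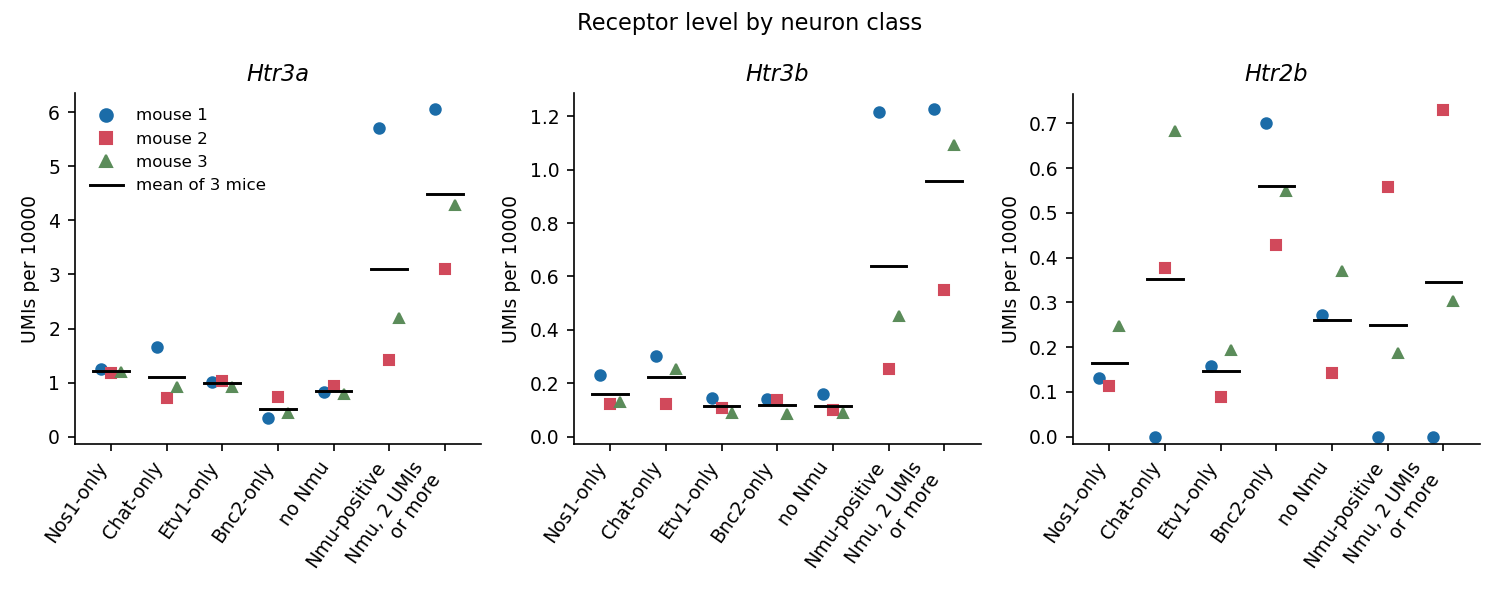
Level of Htr3a, Htr3b and Htr2b by neuron class, in UMIs per 10000, with 1 point per mouse and a line at the mean of 3 mice. Htr3a and Htr3b are highest in cells with 2 or more Nmu UMIs, and Htr2b is higher in Bnc2-only than in Etv1-only cells in each mouse.

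Over the 3 mice pooled, the share of cells with a channel subunit climbed with the number of Nmu UMIs in the cell. Of the 1860 cells with no Nmu UMI 36.5% held Htr3a, of the 130 cells with 1 UMI 49.2%, of the 33 cells with 2 to 4 UMIs 78.8%, and of the 37 cells with 5 or more UMIs 91.9%. For Htr3b the shares were 8.01%, 14.6%, 39.4% and 56.8%. Htr1b, a Gi-coupled receptor known on nerve endings, went from 0.860% and 0.769% to 9.09% and 35.1%. Htr2a, a Gq-coupled receptor, went from 0.699% and 0% to 6.06% and 21.6%. For both of these the shares were higher from the bin of 2 to 4 UMIs on, where they rest on 3 and 2 of 33 cells. Htr2c, also Gq-coupled, went from 2.80% and 1.54% to 9.09% and 10.8%. Htr2b showed no such rise, at 10.5%, 10.8%, 12.1% and 2.70%. These bins were chosen after the values were seen and pool the mice in unequal parts, since mouse 1 gave 6 of the 130 cells with 1 UMI, 12 of the 33 with 2 to 4 and 13 of the 37 with 5 or more. They carry no test. In cells with 5 or more Nmu UMIs the median total was 5199, 14597 and 14972 UMIs in mice 1, 2 and 3. Without Nmu it was 3657, 9568 and 9528. After thinning, cells with 2 or more Nmu UMIs held Htr3a in 60.3%, Htr3b in 22.1% and Htr1b in 14.7%. Htr2a was then found in 2 of these 68 cells (2.94%). Thinned cells without Nmu held the same genes, in that order, in 20.04%, 2.72%, 0.296% and 0.414%. The part of depth in the rises above was not tested.

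Mouse by mouse the cells with 5 or more Nmu UMIs held Htr3a in 92.3% (12 of 13 cells), 85.7% (6 of 7) and 94.1% (16 of 17). The share with Htr3b climbed over the 4 bins in mouse 2 (9.18%, 16.9%, 25.0% and 71.4%) and mouse 3 (7.23%, 8.47%, 38.5% and 64.7%). In mouse 1 it did not climb further once Nmu was present, at 5.88% without Nmu and 3 of 6, 6 of 12 and 5 of 13 cells in the other 3 bins. Htr1b was found in 2, 4 and 7 of these cells, in each of the 3 mice. Htr2a was found in 0, 5 and 3 of them, so it was missing in the shallow library of mouse 1 and strongest in the 7 cells of mouse 2.

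**Figure D3:**
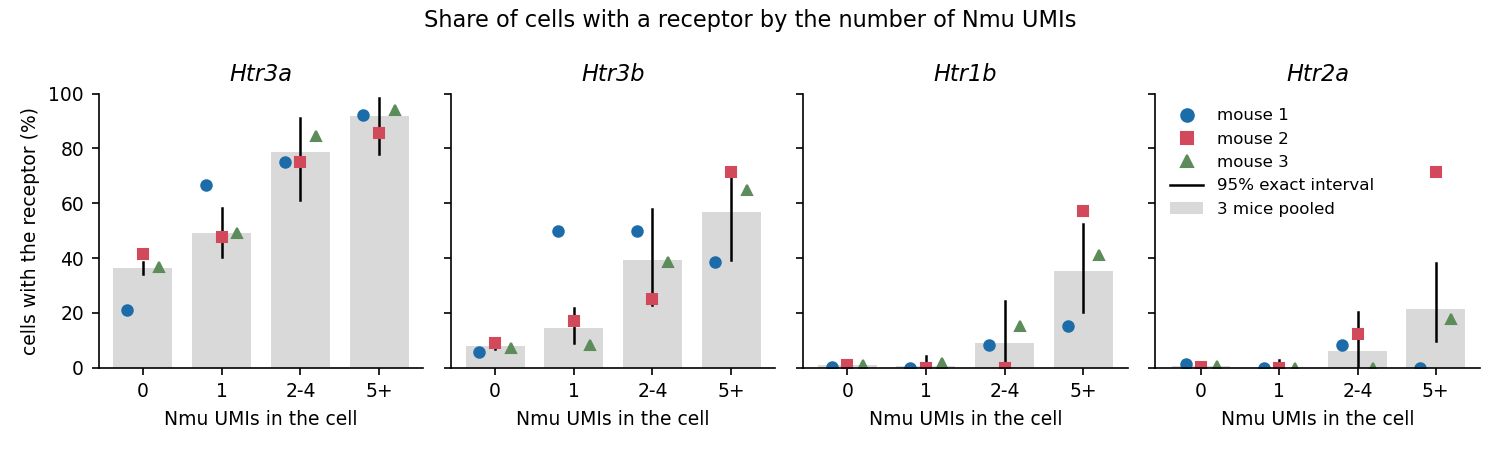
Share of neurons with at least 1 UMI of Htr3a, Htr3b, Htr1b or Htr2a by the number of Nmu UMIs in the cell. Grey bars are the 3 mice pooled with their 95% exact binomial interval and points are single mice. Shares are without thinning. The pooled Htr3a share goes from 36.5% to 91.9% and the Htr1b share from 0.860% to 35.1%.

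Htr1b and Htr2a were rare genes gathered in a small part of the neurons. Cells with 2 or more Nmu UMIs were 3.40% of all neurons and held 16 of the 33 Htr1b-positive cells (48.5%, 95% exact interval 30.8% to 66.5%) and 10 of the 23 Htr2a-positive cells (43.5%, 23.2% to 65.5%). The level of Htr1b there was 0.230, 0.487 and 0.425 UMIs per 10000, against 0.00734, 0.0105 and 0.0145 in cells without Nmu, and the groups did not overlap. For Htr2a it was 0.0767, 0.365 and 0.0910 against 0.0514, 0.00420 and 0.00726, and the values of mouse 1 rest on 1 UMI in 25 cells. Neither gene was found in any of the 332 Bnc2-only cells, which allows a share of up to 0.904%. Over all cells with Nmu, 4 of the 8 receptors with 20 or more UMIs (Htr1b, Htr2a, Htr3a and Htr3b) had a higher level than cells without in each of 3 mice, which held for 12.2% of all genes with that many UMIs, and 0 were lower in each, which held for 19.7%.

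The 4 receptors were also set against 4 other genes of intrinsic sensory neurons, Nog, Cysltr2, Calcb and Ucn3. In 12 of these 16 pairings the level was higher in cells with the marker in each of 3 mice. The 4 receptors were those already higher in Nmu cells in each mouse. How many of all genes were higher with these markers was not counted, so the count is a description. The other 4 were those with Ucn3, which was found in 10 cells. In cells with Cysltr2, a leukotriene receptor gene, the level of Htr3a was 5.95, 2.07 and 4.13 against 0.995, 0.944 and 0.832 in cells without, and that of Htr1b 0.183, 0.329 and 0.410 against 0.0141, 0.0108 and 0.0180. In cells with Nog, which encodes the BMP inhibitor noggin, Htr3b stood at 0.810, 0.466 and 0.770 against 0.218, 0.102 and 0.0877. Htr2a was higher with Calcb, the gene of a calcitonin gene-related peptide, at 0.205, 0.0532 and 0.0358 against 0.0162, 0.00226 and 0.00211. These marker genes overlap with Nmu in the same cells, so they are not separate evidence.

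Htr3a and Htr3b were found in the same neuron more often than their shares alone would give. Both were seen in 139 cells, where 79.0 were expected if the genes were independent within each mouse, a ratio of 1.76 (95% exact Poisson interval 1.48 to 2.08). The counts by mouse were 21 against 8.67, 69 against 45.2 and 49 against 25.0, with ratios of 2.42, 1.53 and 1.96. Depth raises both genes at once, and with the expectation taken within 5 equal bins of the UMI total of each mouse the ratio was 1.56 (1.31 to 1.84). Thinned cells gave 30 against 14.9, a ratio of 2.02 (1.36 to 2.88), although in mouse 2 alone it was 1.26 (0.508 to 2.60).

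Of the Htr3b-positive cells 63.6%, 64.5% and 79.0% held Htr3a in mice 1, 2 and 3, against 22.4%, 39.8% and 36.4% of cells without Htr3b. After thinning these shares were 52.6%, 26.9% and 59.1% against 21.8%, 21.2% and 20.4%. Without thinning the Htr3a share rose with the Htr3b count. Htr3a was found in 35.7% of cells with no Htr3b UMI, 65.0% of the 177 cells with 1, 93.8% of the 16 cells with 2 and 9 of the 9 cells with 3 or more. Of those 9 cells 7 also held Nmu, and 3, 0 and 6 came from mice 1, 2 and 3. Median totals of these groups were 7907.5, 10719, 11714 and 11215 UMIs in the same order. The part of depth in the rise was not tested.

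The ratio was above 1 also outside the Nmu cells, with the expectation taken within each mouse and not by depth. Class ratios by depth were not taken. In cells without Nmu 96 held both against 55.9 expected, a ratio of 1.72 (1.39 to 2.10), in Nos1-only cells 80 against 53.7 (1.49, 1.18 to 1.85), in Chat-only cells 20 against 9.05 (2.21, 1.35 to 3.41) and in Bnc2-only cells 17 against 8.37 (2.03, 1.18 to 3.25). In the 70 cells with 2 or more Nmu UMIs, where most cells held Htr3a, it was 30 against 29.2 (1.03, 0.692 to 1.46). The ratio of Htr3a to Htr3b UMIs was 4.90, 8.56 and 7.08 over all neurons. In Nmu-positive cells it was 4.70, 5.57 and 4.85, and in cells without Nmu 5.09, 9.22 and 8.98, lower with Nmu in each mouse.

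Among the 28 pairs of the 8 receptors with 20 or more UMIs, Htr1b, Htr2a and Htr3b also met each other above expectation. Of their positive cells 17 of 33, 10 of 23 and 53 of 202 held Nmu. With the expectation taken by depth, Htr1b and Htr2a were seen together in 6 cells against 0.422, all 6 of them with 2 or more Nmu UMIs and from mice 2 and 3. Expectations within a class were taken within each mouse and not by depth. Within the cells with 2 or more Nmu UMIs the expectation was 2.62, a ratio of 2.29 (0.840 to 4.98). Htr2a and Htr3b met in 15 cells against 2.79, a ratio of 5.38 (3.01 to 8.87), and Htr1b and Htr3b in 14 against 3.79, a ratio of 3.70 (2.02 to 6.21). For Htr1b with Htr3b the intervals reached below 1 within classes, with 11 against 7.99 (1.38, 0.688 to 2.46) in cells with 2 or more Nmu UMIs and 2 against 1.32 (1.52, 0.184 to 5.48) in cells without Nmu. For Htr2a with Htr3b the ratio was 1.65 (0.714 to 3.26) in the former and 7.37 (2.96 to 15.2, from 7 cells) in the latter. Htr2b met the Gs-coupled receptor Htr7 in 26 cells against 9.30 (2.80, 1.83 to 4.10), and in 8 against 1.79 after thinning. Htr2b met Htr4 in 13 cells against 3.82 (3.40, 1.81 to 5.82), but in 1 against 1.12 after thinning, where few cells remain. Thinned counts were 2 against 0.0865 for Htr1b with Htr2a, 1 against 0.449 for Htr2a with Htr3b and 3 against 0.596 for Htr1b with Htr3b. Htr1b and Htr2b met in 0 cells against 3.97. Htr2b met Htr3a in 101 cells against 91.4 (1.11, 0.900 to 1.34) and Htr3a met Htr7 in 35 against 35.3. Of the 70 cells with 2 or more Nmu UMIs 45 (64.3%) held at least 2 of the 10 receptors, against 13.6% of cells without Nmu. In these 70 cells Htr3a was found in 85.7% and Htr3b in 48.6%. The share with 2 or more receptors that single shares alone would give was not taken.

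**Figure D4:**
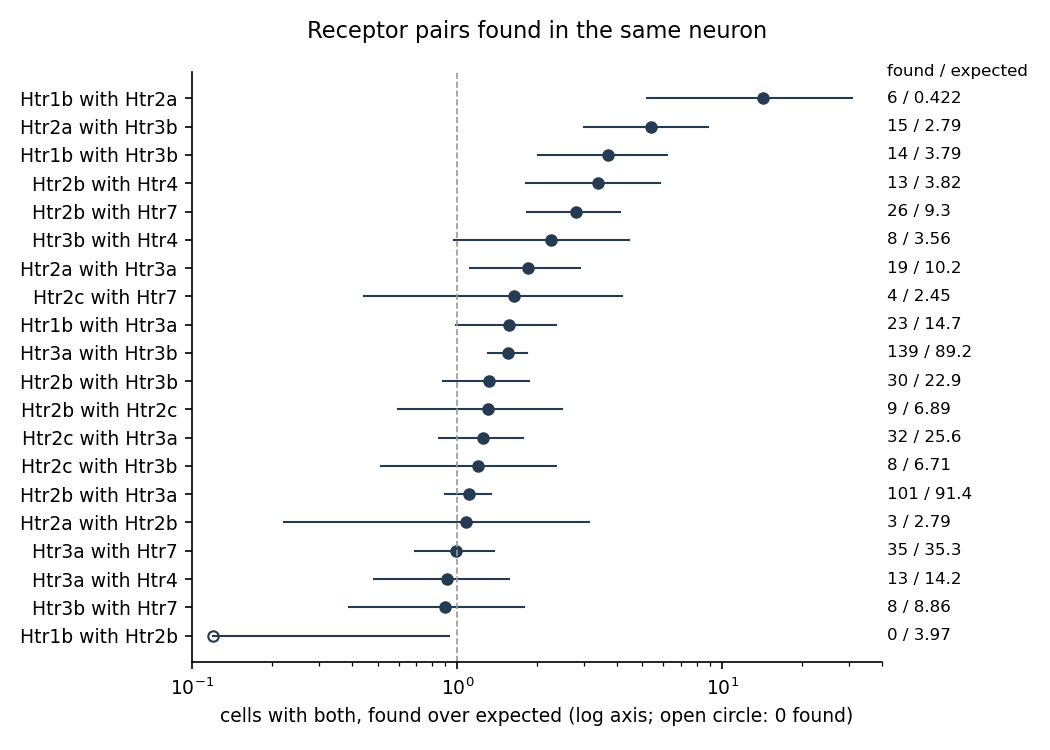
Number of neurons holding both receptors of a pair over the number expected from independence within 5 equal bins of the UMI total of each mouse, on a log axis, with 95% exact Poisson intervals. Shown are pairs with at least 2 expected cells, and Htr1b with Htr2a. The highest ratios are for Htr1b, Htr2a and Htr3b with each other and for Htr2b with Htr4 and Htr7, and the open circle marks 0 cells for Htr1b with Htr2b.

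Htr2b, known in the gut from interstitial cells of Cajal as well as neurons, was higher in Bnc2-only than in Etv1-only cells, where Htr3a was lower. The level of Htr2b was 0.702, 0.429 and 0.550 in Bnc2-only cells of mice 1, 2 and 3 and 0.159, 0.0885 and 0.193 in Etv1-only cells, with no overlap. The log2 difference of Etv1-only against Bnc2-only cells was -1.42 (SE 0.19, 95% interval -1.89 to -0.95), with an unadjusted p of 0.00041. It did not pass over 11340 genes (limma adjusted p = 0.082), where 0.185% were called higher and 0.0882% lower. At an unadjusted p under 0.05, 7.12% of genes were higher, Htr3a and Htr2c among them, and 4.81% lower, Htr2b among them. Htr2b passed without mouse 1 (adjusted p = 0.041, with 4.18% of genes called higher and 3.25% lower) and without mouse 3 (0.0077, with 0.864% and 0.723%) and not without mouse 2 (0.25), and over all settings the adjusted p ran from 0.0077 to 0.25. Without the 121 cells rich in smooth muscle genes it was -1.29 (adjusted p = 0.067), and 10 of the 24 Htr2b-positive cells of mouse 1 were among those cells. Kit stood at 0.140, 0.0114 and 0.00833 UMIs per 10000 in Bnc2-only and 0.0433, 0.0217 and 0.151 in Etv1-only cells. The 6 enteroendocrine genes checked were higher in Bnc2-only cells in each mouse, at 3.79, 9.54 and 11.3 against 3.02, 3.49 and 3.99, most of it the granin gene Chgb (3.37, 7.37 and 9.34 against 1.69, 1.87 and 2.33), while Tph1, Neurod1 and Pax6 were at 0 in Bnc2-only cells. Glial genes stood at 22.8, 17.2 and 12.3 against 24.8, 32.8 and 25.0. The part of these genes in the result was not tested. In this comparison 4 of 8 receptors (Htr1b, Htr2a, Htr2c and Htr3a) were higher in each of 3 mice, which 18.1% of genes were, and 1 (Htr2b) was lower in each, which 16.3% were.

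Thinned shares of Htr2b-positive cells were 10.6% ± 2.54 (SD, n = 3 mice) in Bnc2-only and 4.85% ± 1.32 in Etv1-only cells. Single cells held up to 4, 19 and 20 UMIs of Htr2b in mice 1, 2 and 3. Between Nos1-only cells (0.132, 0.114 and 0.246) and Chat-only cells (0, 0.376 and 0.684) Htr2b was lower in mouse 1 and higher in mice 2 and 3 in the Chat class, with 0 UMIs in the 16 Chat-only cells of mouse 1. The log2 difference was -0.37 with a 95% interval from -1.68 to 0.94 (limma adjusted p = 0.76).

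The 35 neurons with 3 or more Htr2b UMIs mostly held the same transmitter genes. Tac1, the gene of substance P, was found in 32 of them (91.4%), Penk, the gene of enkephalin, in 30 (85.7%), Slc18a3, the vesicular acetylcholine transporter, in 30 (85.7%) and Bnc2 in 27 (77.1%). In the 1845 neurons with no Htr2b UMI these shares were 40.5%, 28.8%, 37.3% and 25.9%. Nos1 was found in 34.3% against 51.5% and Vip, the gene of an inhibitory peptide, in 31.4% against 53.7%. The Gs-coupled receptors Htr7 and Htr4 were in 25.7% and 17.1% of them, against 2.76% and 1.14%. These cells came from mouse 2 (14 cells) and mouse 3 (19) and less from mouse 1 (2), and were deeper, with a median of 13081 UMIs against 7968. Depth raises the share of every gene, and its part in these shares was not tested. In the 144 cells with 1 and the 36 cells with 2 Htr2b UMIs, whose median totals were 9057.5 and 12213.5 UMIs, Nos1 was found in 56.3% and 58.3% and Vip in 59.0% and 58.3%. In mouse 2 all 14 held Tac1, Penk and Slc18a3 and 0 held Vip, whereas in mouse 3 10 of 19 held Vip.

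Levels are scaled by the total and gave the same order. Htr2b stood at 0.553, 0.426 and 0.579 in Penk-positive cells against 0.175, 0.0570 and 0.167 in cells without, and at 0.335, 0.319 and 0.493 with Tac1 against 0.211, 0.0552 and 0.172 without. The genes with the most alike detection over 3 mice, by the mean phi coefficient in thinned cells, were Kcnip4 (0.24), Csmd3 (0.23), Calcrl (0.20), Penk (0.17) and Pcsk1 (0.16). For Htr3a they were Calcb (0.21), Slc35d3 (0.21), Cbln2 (0.20), Pcsk2 (0.19) and Cnr1 (0.18), and for Htr3b Calcb (0.19), Rgs9 (0.18), Cbln2 (0.17), Gucy1a1 (0.17) and Nmu (0.16). All of these are weak and are given as a description.

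**Figure D5:**
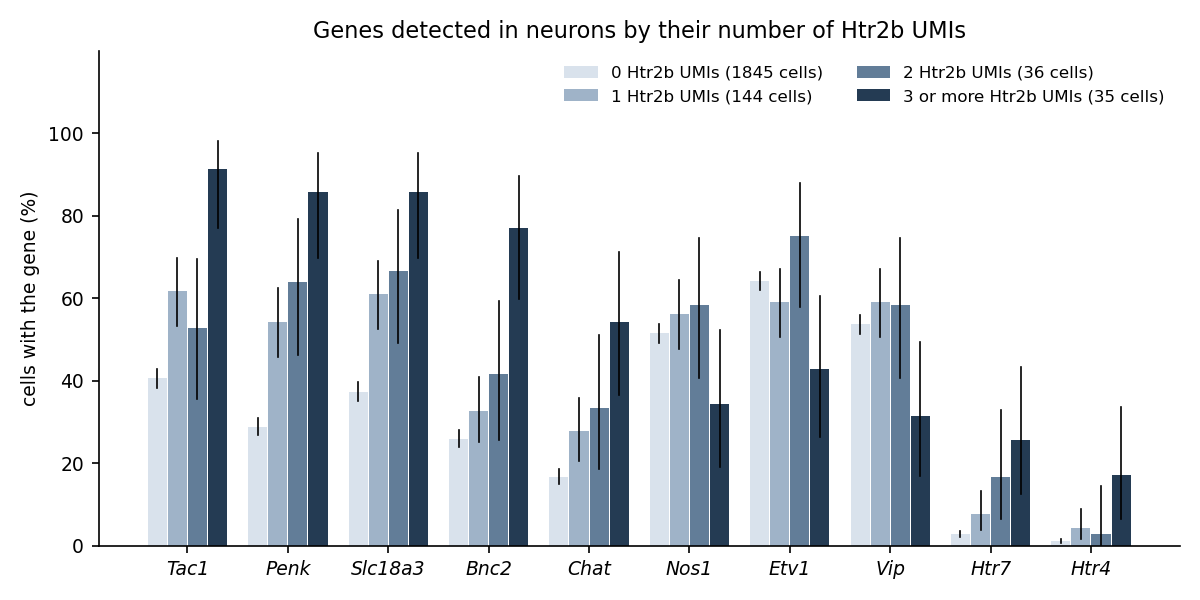
Share of neurons with at least 1 UMI of 10 genes, by the number of Htr2b UMIs in the cell, 3 mice pooled, with 95% exact binomial intervals. Tac1, Penk, Slc18a3 and Bnc2 are found most often in the 35 cells with 3 or more Htr2b UMIs, and Vip least often there.

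The other Gq-coupled receptor, Htr2c, was found in 13, 28 and 20 cells of mice 1, 2 and 3, and 45 of these 61 cells (73.8%, 60.9% to 84.2%) were Nos1-only. Its level in cells with Nos1 was 0.240, 0.0401 and 0.0558 against 0.0222, 0.0229 and 0.0106 in cells without, higher in each mouse. Mouse 1, the shallower library, stood above the other mice. Between Nos1-only and Chat-only cells the log2 difference was 0.23 with a 95% interval from -0.51 to 0.97 (limma adjusted p = 0.73), with 2, 2 and 0 UMIs of Htr2c in the Chat-only cells, and between Etv1-only and Bnc2-only cells it was 0.56 (0.06 to 1.06, adjusted p = 0.38).

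The Gs-coupled receptors were sparse. Htr4 was found in 4, 18 and 12 cells, and 12 of these 34 cells (35.3%, 19.7% to 53.5%) were Chat-only, a class of 13.4% of neurons. Its level in Chat-only cells was 0.151, 0.0738 and 0.0270 against 0, 0.00362 and 0.0171 in Nos1-only cells, higher in each mouse, and the value of mouse 1 is 1 UMI. In cells with Cck, the gene of cholecystokinin, 3 of 9, 1 of 26 and 2 of 44 cells held Htr4. Cck is 1 of 29 class genes set against the receptors, so these few cells are a description and no link was tested. Htr7 was found in 1, 50 and 26 cells, and whether its 1 UMI in mouse 1 is a matter of gene naming was not tested. In mice 2 and 3 its level was 0.0634 and 0.0582 in Nos1-only cells and 0.0604 and 0.0540 in Chat-only cells, nearly the same in both, and 0.0634 and 0.0580 in Etv1-only against 0.0629 and 0.0583 in Bnc2-only cells. It had 0 UMIs in the 67 cells with Cysltr2. Between Nos1-only and Chat-only cells 1 of 8 receptors (Htr7) was higher in each of 3 mice, which 17.7% of genes were, and 2 (Htr1b and Htr4) were lower in each, which 18.7% were.

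Other genes of serotonin signalling were mostly low. Of the remaining receptor genes Htr6 was found in 15 cells, Htr1f and Htr5a in 5 each and Htr5b in 0. Tph1, the enzyme that makes serotonin outside the brain, was found in 22 cells, and Tph2, the neuronal enzyme, and Slc6a4, the serotonin transporter, in 0 of 2060. Slc18a2, the vesicular monoamine transporter, was found in 807 cells (26.6%, 41.2% and 42.7%), Ddc in 155, Maoa, which breaks down serotonin, in 528 and Maob in 101. Of 9 genes of synthesis, transport and breakdown 4 were tested, and of 26 partner and signalling genes 23 were tested. In each of the 3 comparisons 0 of either list passed.

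Maoa was higher with Nmu, as the channel genes were. Its level was 3.28, 0.764 and 0.895 in Nmu-positive cells against 0.610, 0.342 and 0.283 in cells without Nmu, higher in each mouse, with a log2 difference of 1.53 (limma adjusted p = 0.22). For Etv1-only against Bnc2-only cells the Maoa difference was -0.13, and for Nos1-only against Chat-only cells -0.66. In the same order Htr3a stood at 0.89 and 0.19, and Htr3b at -0.04 and -0.29. With 2 Nmu UMIs asked for, where 2.44% of all genes were called higher and 2.09% lower, 1 of the 4 synthesis and breakdown genes and 4 of the 23 partner and signalling genes tested were higher and 0 lower. Maoa was then 2.34 higher (limma adjusted p = 4.5e-05). S100a10, an annexin partner known to bind some serotonin receptors (1.27, adjusted p = 0.011), the adenylyl cyclase Adcy1 (1.43, 0.014), Plcb3 of the Gq pathway (1.32, 0.017) and the Gs-like alpha subunit Gnal (1.42, 0.023) were the other 4. The 4 receptors that passed the filter were split between Nmu-positive and Nmu-negative cells. Log2 differences were 1.57 for Htr3b, 1.53 for Htr3a, 0.16 for Htr2c and -0.39 for Htr2b. Their median was 0.85, beside -0.08 over all genes tested, and describes no single receptor. It was 0.26 beside 0.01 for Etv1-only against Bnc2-only cells and -0.05 beside 0.02 for Nos1-only against Chat-only cells.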

How the data were processed

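Single-cell RNA-seq of sorted tdTomato-positive cells was made with 10x Chromium kits, and reads were processed by the authors in Cell Ranger against mm10. Cells outside their limits and cells not called neurons were left out. The deposited values are the natural log of 1 plus the UMIs of a gene per 10000 UMIs of its cell. Whole UMIs were recovered from these values, and 100% of 6435281 values came out whole within 1e-06. No count model was fitted, a choice made because the deposited unit is a log, although the recovered UMIs are counts. There were 0 sample columns outside the sample list.

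UMIs were summed per mouse and class, for classes of at least 10 cells, and log2(UMIs per 10000 + 0.1) was tested with limma 3.58.1 (trend) in R 4.3.3. Folds are on that scale, which understates the change of low genes. The mouse was a block because both classes come from the same mouse, so that same-numbered samples are paired by animal. Genes with a mean level of at least 0.05 were kept, and p-values were adjusted by Benjamini-Hochberg over all of them with a threshold of 0.05. The number of mice is 3, and an exact two-sided permutation test of 3 pairs cannot go below 0.25. The libraries come from separate animals.

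Shares were given with exact binomial and levels with exact Poisson intervals (95%, scipy 1.17.1), and cells were thinned to 3000 UMIs with a fixed seed. Doublet removal is not given in the sources used here, and no doublet caller was run. Named genes are the members and fixed lists of serotonin and class genes, plus the 5 genes most alike to each member found in at least 5% of cells. Members, lists and classes were chosen with earlier results of these data known. Positions are from GENCODE M21 (GRCm38), and promoters from RefSeq. Each step was tested on simulated data. Alternatives were other pseudocounts (0.02 and 0.5), no filter, a cut of 2 UMIs, thinning, leaving out cells with 6 or more smooth muscle or glial genes, no block, and leaving out each mouse. Leaving out cells with smooth muscle genes at 100 or more UMIs per 10000 was chosen after seeing the data. Python 3.11.15, numpy 2.4.6 and pandas 2.3.3 were used.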

Additional observations from a re-analysis of the deposited data

How the results depend on the processing

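The number of genes called was sensitive to most settings, and the cause was not tested unless fewer cells or mice entered. For Nos1-only against Chat-only cells the 10 calls became 2 and 47 with pseudocounts of 0.02 and 0.5, 4 without a filter, 95 with 2 UMIs asked for, 26 without cells with 6 or more glial genes, 23 after thinning and 6 to 188 without 1 mouse. For Etv1-only against Bnc2-only cells the 31 calls became 11 with a pseudocount of 0.02, 4 without a filter, 792 with 2 UMIs, 85 and 20 without cells with 6 or more smooth muscle or glial genes, 53 without the cells rich in smooth muscle genes, 20 after thinning and 34 to 842 without 1 mouse. For Nmu the 2 calls became 0 with a pseudocount of 0.5 (limma, 771 genes at an unadjusted p under 0.05), 0 without a filter (1075 unadjusted), 514 with 2 UMIs, 12 and 32 without cells with 6 or more smooth muscle or glial genes, 1 without the cells rich in smooth muscle genes, 5 after thinning and 0 to 63 without 1 mouse. With 2 UMIs mouse 1 had too few cells to enter the Nos1 and Etv1 comparisons.

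Without the replicate block 9, 26 and 0 genes were called in the 3 comparisons (limma, 465 at an unadjusted p under 0.05 in the last), and no receptor was called.

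The share of cells with a receptor, 47.8% over 3 mice, was 22.6% with 2 UMIs, 31.7% after thinning and 45.1% to 52.6% without 1 mouse. The ratio for Htr3a with Htr3b was 3.97 with 2 UMIs and 1.67 to 2.08 without 1 mouse. Signs that turned belonged to differences that were not called. For Nos1-only against Chat-only cells Htr2b was 0.018 without mouse 2 and 0.031 without mouse 3, Htr3a -0.026 without mouse 2 and Htr2c -0.027 without mouse 3. Without 1 mouse these ran from -1.17 to 0.031, from -0.026 to 0.48 and from -0.027 to 0.53. For Etv1-only against Bnc2-only cells Htr3b was 0.082 without cells with 6 or more glial genes, 0.0055 without the cells rich in smooth muscle genes and from -0.081 to 0.027 without 1 mouse, turning without mouse 2. For Nmu, Htr2b was 0.37 and Htr2c -0.0020 without mouse 1, with ranges from -1.30 to 0.37 and from -0.0020 to 0.29. Genes below 3 UMIs per mouse (0.0197, 0.0029 and 0.0047 UMIs per 10000) lie under what this depth can show.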
